A study of Mus musculus with 4 samples.

Results

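Cycling preneutrophils were examined in 2 single-cell RNA libraries of mouse bone marrow labelled c-Kit+, where they made up 4674 of the 26656 cells that passed the quality filter. They were chosen by their own counts. Each cell had at least 1 UMI (unique molecular identifier, the tag that counts a captured RNA molecule once) in 4 or more of the 8 cell cycle genes Mki67, Top2a, Cdk1, Ube2c, Birc5, Nusap1, Tpx2 and Cenpf. The primary granule genes Elane, Mpo, Prtn3 and Ctsg together held under 1% of its UMIs, and the secondary granule genes Ltf, Camp, Ngp, Fcnb and Chil3 held 0.5% or more. Klf1, Gata1, Ermap and Cd79a, genes of the erythroid and B lineages, were all at 0. The WT library held 2304 such cells of 12948, a share of 17.8% (exact Clopper-Pearson 95% interval 17.1 to 18.5). The KO library held 2370 of 13708, a share of 17.3% (16.7 to 17.9). The ratio of the KO share to the WT share was 0.972, and each share lay within the other's interval. Dividing the outer limits of the 2 intervals gave 0.902 to 1.046, which is wider than a 95% interval of the ratio. The difference was thus within counting error.

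The series comprises 4 libraries, 1 per group: c-Kit+ marrow of a wild-type (WT) and of an Rbm5 knockout (KO) mouse, and MLL-AF9 leukaemia cells of both genotypes taken after primary transplantation. The study asked what the splicing factor Rbm5 does in the leukaemia, with c-Kit+ marrow as the normal counterpart. The leukaemia libraries enter no comparison here. Strain, age, the way Rbm5 was deleted and the deleted exons are not given in the sources used here. With 1 library per group there is no replicate in any comparison, so no test between groups was made, and every interval covers counting error only. The deposited c-Kit+ files held 94266267 UMIs in 13480 barcodes (WT) and 101851873 UMIs in 14577 barcodes (KO), and the libraries shared 60 barcodes (0.445% of the WT barcodes).

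Neutrophils are made in the marrow in a fixed order of granules. Promyelocytes fill primary (azurophil) granules with myeloperoxidase and serine proteases, the next stages fill secondary (specific) granules with lactoferrin and cathelicidin, and late cells fill tertiary (gelatinase) granules. Preneutrophils are the last dividing stage: they proliferate while they make secondary granule proteins, under the transcription factor C/EBP epsilon, and then leave the cycle as immature neutrophils.

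Rbm5 itself stood at 63.5 CPM (a gene's UMIs scaled to a sum of 1000000 over the cells of a group; exact Poisson 95% interval 60.2 to 67.0) in the WT cycling preneutrophils and at 75.9 CPM (72.3 to 79.6) in the KO ones. Its RNA was thus not lower in the library labelled KO. It was somewhat higher there, by more than counting error, and the cause of the higher level was not tested. Reverse transcription was primed from poly(A), and transcripts that keep their 3′ end are still counted, so the level of Rbm5 is no check of the label. The Rbm5 gene lies on the minus strand at chr9:107740371-107770996 (GRCm38, GENCODE M21).

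The 6 markers of the cell type were all present in the cells of both libraries, although Mki67, Top2a, Fcnb, Chil3 and Camp belong to the rule. Cebpe, which encodes C/EBP epsilon and was not used by the rule, stood at 395 CPM in the WT and 410 CPM in the KO cells, against 9.33 and 22.4 CPM in T or NK cells of the same libraries. With each cell thinned to 2000 UMIs, Cebpe had a UMI in 52.0% of WT and 51.9% of KO cycling preneutrophils. The same shares in T or NK cells, which should lack it, were 1.27% and 5.49%. The median depth before thinning was 8916.5 (WT) and 8700 (KO) UMIs in cycling preneutrophils and 3243 and 3114 UMIs in T or NK cells. Thinning left out 11 WT and 27 KO cycling preneutrophils.

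The secondary granule share, which the rule used, lay far above its limit in most cells. The rule asked for 0.5%, but the 5 rule genes held a median of 12.5% of a WT cell's UMIs and 12.1% of a KO cell's UMIs, against 0.141% and 0.183% in T or NK cells. Camp, the cathelicidin precursor, alone gave 8.19% of all UMIs of the WT cells and 7.77% of those of the KO cells. Ngp, neutrophilic granule protein, gave 3.14% and 3.16%. The calprotectin subunits S100a9 (14.1% and 14.4%) and S100a8 (12.6% in both) were outside the rule and gave more than any other gene. Lcn2, the siderophore-binding lipocalin of secondary granules, gave 1.09% and 1.23%.

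Few cells lay near the secondary granule limit of the rule, and more near the others. Between 0.5% and 1% secondary granule UMIs there were 2 WT and 5 KO cells, and 8 WT and 19 KO cells fell just outside, between 0.25% and 0.5%. On the primary granule side, 124 WT and 152 KO cells held between 0.5% and 1%, and 166 and 196 cells otherwise alike held between 1% and 2%. Exactly 4 cycle genes were seen in 224 WT and 225 KO cells, against 221 and 241 cells just outside with 3. All 8 were seen in 917 WT and 993 KO cells, so cells with all 8 outnumbered those with 4. A further 220 WT and 280 KO cells met every other condition but had a UMI of an excluded lineage gene. Their median depth was 12861.5 and 11571 UMIs, above that of the chosen cells.

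Kit RNA was low for cells labelled c-Kit+. Kit stood at 24.4 CPM in the WT and 20.7 CPM in the KO cycling preneutrophils, and after thinning it had a UMI in 5.23% and 4.23% of them. The share was 11.4% and 9.89% in the 79 and 91 thinned T or NK cells, 8.73% and 9.21% in cycling primary granule cells, and 1.80% and 2.37% in non-cycling secondary granule cells, so the chosen cells lay between these groups. Cd34, a stem and progenitor antigen, stood at 4.69 and 5.06 CPM.

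Markers of other blood cells were low in summed level, as the plot of marker lists shows. The 8 monocyte markers summed to 58.5 CPM in the WT and 58.8 CPM in the KO cells, the 8 T or NK markers to 5.19 and 5.65 CPM, and the 9 B cell markers to 11.4 and 16.2 CPM. The 9 erythroid markers, of which Klf1, Gata1 and Ermap are at 0 by the rule, summed to 27.7 and 33.2 CPM. The 7 conventional dendritic markers differed most between the libraries, at 37.5 CPM in the WT and 107 CPM in the KO cells. At least 3 conventional dendritic markers were seen together in 14 WT and 28 KO cells, and at least 3 monocyte markers in 35 and 48 cells. The 6 basophil or mast cell markers summed to 135 and 137 CPM, of which Prss34, a basophil protease, gave 93.9 and 95.5 CPM. Few cells carried it: 10 cells held 96.8% (WT) and 97.1% (KO) of its UMIs. Scrublet, a doublet caller, marked 7.03% of the WT and 5.06% of the KO cycling preneutrophils, against 4.46% and 3.09% of all cells that passed the filter. Called doublets were kept, and their removal was tried as an alternative.

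**Figure D1:**
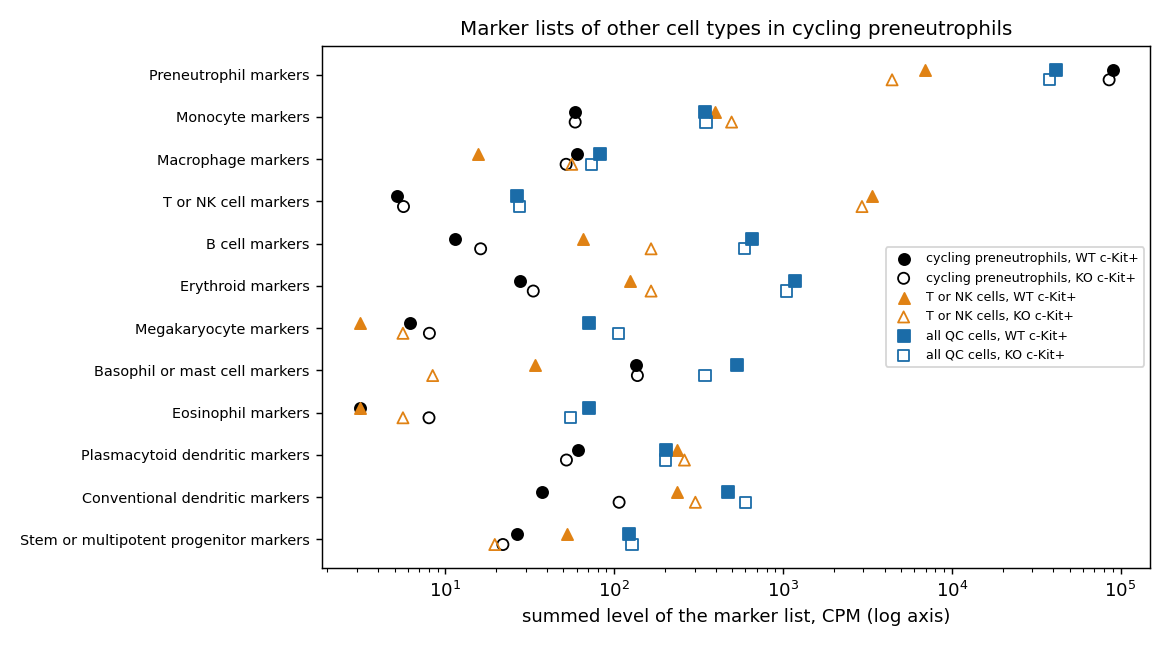
Summed level of marker lists in CPM (log axis) in cycling preneutrophils, T or NK cells and all cells passing the quality filter, for the WT (filled) and KO (open) c-Kit+ libraries. In cycling preneutrophils the preneutrophil list sums to 90025 and 85568 CPM, and every other list to at most 137 CPM.

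The first comparison set cycling preneutrophils beside 3135 WT and 2606 KO cells with none of the 8 cycle genes and otherwise the same rule. The latter are called non-cycling here, though a lack of these UMIs does not show that a cell had left the cycle. Their median secondary granule share was 9.47% in WT and 9.32% in KO, against 12.5% and 12.1% in the cycling preneutrophils. The non-cycling cells were shallower, with median depths of 3532 and 3306 UMIs. Of 2310 genes with a mean level of at least 50 CPM, 338 (14.6%) were 2-fold or more higher in the cycling cells in both libraries and 224 (9.7%) were 2-fold or more lower. The groups were split by cycle genes, so the values below describe the split cells and support no statement of cause.

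Many late neutrophil genes were lower in the cycling cells. Mmp8, neutrophil collagenase, stood at 62.8 CPM in the WT and 41.9 CPM in the KO cycling preneutrophils. The non-cycling cells had 1683 and 1440 CPM, log2 ratios of cycling over non-cycling cells of -4.72 and -5.07. After thinning, Mmp8 had a UMI in 5.80% and 4.82% of cycling preneutrophils, against 7.59% and 5.49% of T or NK cells. The share of cycling cells with Mmp8 thus lay near that of the few T or NK cells, which is a statement on detection and not on level. Its UMIs were uneven over the cycling cells: 51 WT and 23 KO cells had 10 or more, and 10 cells held 16.7% and 16.4% of all. Retnlg, a resistin-like granule protein, stood at 423 and 391 CPM against 9577 and 9729 CPM. It was uneven too, with 10 or more UMIs in 118 WT and 105 KO cycling preneutrophils. Mmp9, the gelatinase of tertiary granules, stood at 93.1 and 95.2 CPM against 1280 and 1192 CPM. For all 3 the summed level in the cycling cells of both libraries lay far under that in the non-cycling ones. Of 19 measured genes in the tertiary granule and late neutrophil list, 12 were 2-fold or more lower, none was higher, and all 19 lay below 0, with a median log2 ratio of -1.34 against 0.00 over all genes. The whole list, which holds S100a8 and S100a9, still summed to 273699 CPM in the WT and 277552 CPM in the KO cycling preneutrophils, against 334416 and 335709 CPM.

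Thbs1 (thrombospondin 1) had log2 ratios of -4.39 in WT and -4.36 in KO, Fpr1 (a formyl peptide receptor) -3.94 and -4.25, and Cxcl2 (a neutrophil chemokine) -3.18 and -3.28. S100a6 stood at 599 and 696 CPM against 5873 and 6290 CPM. Dhrs9, Adam8 and Timp2 completed the 10 lowest. Cxcr2, the receptor that draws mature neutrophils out of the marrow, stood at 18.0 and 25.5 CPM against 149 and 168 CPM. Csf3r, the G-CSF receptor, was 64.2 and 64.1 CPM against 165 and 163 CPM. Of 12 measured receptor and adhesion genes, 3 were 2-fold or more lower and none was higher.

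Secondary granule genes were not all at the same level in cycling and non-cycling cells. Fcnb (ficolin B), at 672 CPM in the WT and 611 CPM in the KO cycling cells, stood at 143 and 165 CPM in the non-cycling ones. Chil3, a chitinase-like protein, was at 5848 and 5593 CPM against 2633 and 2596 CPM. Both were 2-fold or more higher in the cycling cells, and both belong to the rule for both groups. Ltf (lactoferrin) went the other way, with 5845 and 5915 CPM against 8481 and 8393 CPM. Ly6g, the surface antigen used to sort mouse neutrophils, was at 279 and 231 CPM against 1008 and 906 CPM. Among 16 other secondary granule genes 4 were 2-fold or more lower, none was higher, and the median was -0.32. Cebpe was at 395 and 410 CPM against 206 and 203 CPM, log2 ratios of 0.94 and 1.01, which straddle the 2-fold limit.

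Genes of division made up most of the high end, as the choice of groups fixes. Pclaf, the PCNA clamp-associated factor, stood at 729 CPM in the WT and 684 CPM in the KO cells against 14.2 and 15.8 CPM. Hmmr, Kif11, Esco2, Smc2, Cdkn3, Cenpe, Prc1, Kif15 and Cdca8, genes of the spindle, of chromatid cohesion and of chromosome condensation among others, followed with log2 ratios between 4.68 and 5.50. Outside the rule's 8 genes, 29 of 31 measured G2 and mitosis genes, 10 of 10 S phase genes and 6 of 7 replication-dependent histone genes were 2-fold or more higher. Among other lists, 9 of 19 splicing factor genes were 2-fold or more higher, with a median of 0.95 and Snrpd1, a core snRNP protein, at 332 and 309 CPM against 35.8 and 49.4 CPM. The 16 measured oxidative phosphorylation genes all lay above 0, 3 of them 2-fold or more, with a median of 0.79.

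The change with the cycle was not a smooth ramp for the late genes. When cells with secondary granule RNA were ordered by how many of the 8 cycle genes they showed, Mmp8 in the WT library was 1683 CPM at 0 genes, 1183 at 1, 278 at 2 to 3, 67.4 at 4 and 65.6 at 8. In the KO library it was 1440, 1066, 330, 49.0 and 40.7 CPM. Retnlg fell away in the same range, from 9577 to 546 CPM between 0 and 4 genes in WT and from 9729 to 402 CPM in KO. Among the chosen cells Retnlg was 546, 440, 378, 384 and 435 CPM at 4, 5, 6, 7 and 8 genes in WT, and 402, 566, 342, 374 and 384 CPM in KO. Most of the drop in both genes thus lay between 0 and 4 cycle genes, and from 4 to 8 the levels moved far less. For Mmp8, detection in the chosen cells was near that in T or NK cells, so its course from 4 to 8 says little.

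Fcnb had another course. It rose from 143 CPM at 0 genes to 889 CPM at 4 and stood at 625 CPM at 8 in WT, and from 165 to 788 and then 588 CPM in KO. Cebpe rose throughout, from 206 CPM at 0 to 281 at 4 and 437 at 8 genes in WT and from 203 to 326 and 450 CPM in KO. Chil3 rose from 2633 to 4858 and 6031 CPM in WT and from 2596 to 4878 and 5720 CPM in KO cells. The summed S phase list was highest at 4 to 5 genes (4617 and 4625 CPM for WT cells, 4015 and 4185 CPM for KO cells) and stood at 2200 and 2084 CPM at 8. Depth moved with this order: the median was 7421 and 6892 UMIs at 4 genes and 10184 and 10311 UMIs at 8, and its part in the order was not tested.

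**Figure D2:**
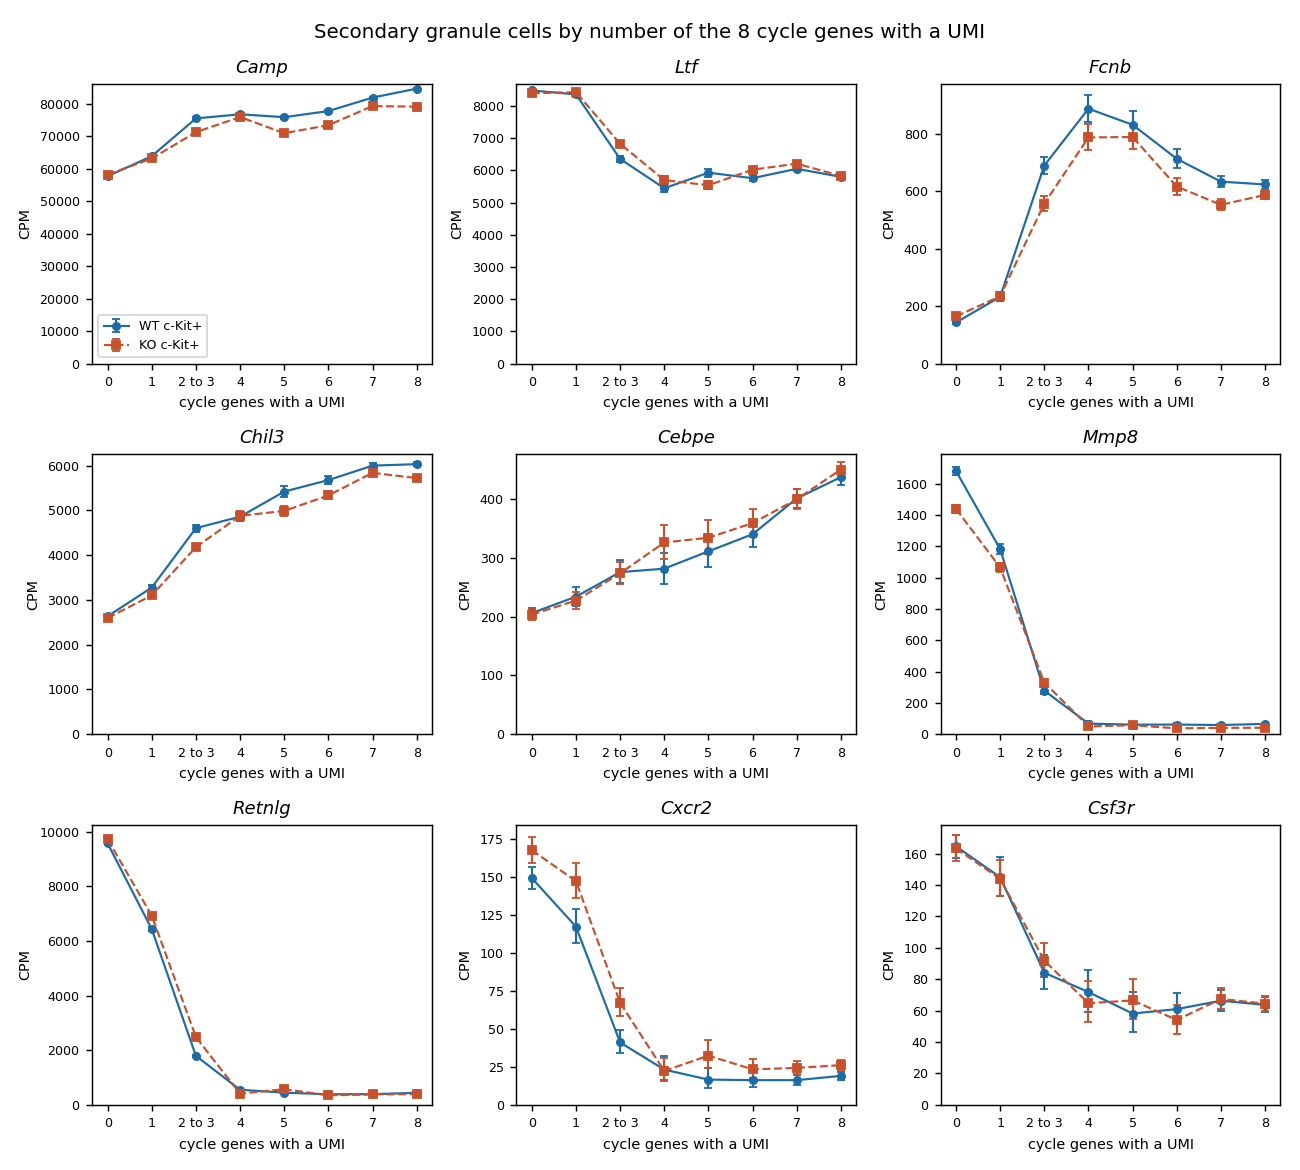
Level in CPM of 9 genes in cells with secondary granule RNA, grouped by how many of the 8 cycle genes had a UMI, in the WT (circles) and KO (squares) libraries; bars are exact Poisson 95% intervals. Cells with 4 or more genes are the cycling preneutrophils. The summed levels of Mmp8, Retnlg and Cxcr2 are low at each number from 4 to 8. Fcnb is highest at 4 to 5 genes, and Cebpe is highest at 8.

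Within the cycling preneutrophils, the balance of S phase and mitosis RNA gave a second view. In 74 WT and 66 KO cells the S phase list held at least as many UMIs as the mitosis list, in 770 and 691 cells mitosis UMIs were 1 to 4 times S phase UMIs, and in 1460 and 1613 cells they were 4 times or more. These numbers do not measure the phases, since the rule chose cells by mitosis genes. Non-cycling secondary granule cells already had 2420 (WT) and 2486 (KO) CPM of the mitosis list, against 316 and 354 CPM of the S phase list. Fcnb was 926, 847 and 575 CPM over these ranges in WT and 948, 802 and 518 CPM in KO. Cebpe was 273, 317 and 439 CPM in the WT and 299, 329 and 448 CPM in KO. Ltf was 4550, 5136 and 6252 CPM in the WT and 4765, 5122 and 6295 CPM in KO. Both libraries therefore gave the same order for all 3 genes: Fcnb was lower, and Cebpe and Ltf higher, where mitosis RNA prevailed. Cdc20, the activator of the anaphase-promoting complex, is on the mitosis list that sets these ranges, so its order is fixed by them: it was 4.50, 39.6 and 145 CPM in the WT and 12.9, 44.3 and 143 CPM in KO.

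The second comparison set them beside 1168 WT and 1468 KO cycling cells whose primary granule share was 1% or more. These were deeper, with medians of 11373.5 and 13118.5 UMIs. Their median secondary granule share was 0.232% in WT and 0.312% in KO, but its 75th percentile was 4.996% and 5.08%. Many of these cells thus passed the 0.5% secondary granule limit too. They were no pure primary granule stage, and the ratios below are to be read with that mix. Their monocyte markers summed to 612 CPM in the WT and 531 CPM in the KO library, against 58.5 and 58.8 CPM in the preneutrophils, and the part of monocyte precursors in the differences below was not tested. Of 2635 genes with a mean level of at least 50 CPM, 212 (8.05%) were 2-fold or more higher in the preneutrophils in both libraries and 659 (25%) were 2-fold or more lower. The median log2 ratio over all genes was -0.27. With median-ratio size factors in place of the UMI sum the median was 0.10 and the split became 430 higher and 399 lower, so the list medians below are to be read against the median of all genes.

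Membrane and granule genes led the high end. St3gal5, the sialyltransferase of ganglioside GM3 synthesis, stood at 186 CPM in the WT and 184 CPM in the KO preneutrophils against 11.9 and 10.3 CPM in the primary granule cells. Inhba, the activin A subunit, stood at 110 and 141 CPM against 7.09 and 10.02 CPM. Ly6g stood at 279 and 231 CPM against 21.5 and 17.7 CPM, Lcn2 at 10898 and 12346 CPM against 1005 and 1204 CPM, and Cd177, a neutrophil surface glycoprotein, at 620 and 636 CPM against 62.2 and 68.4 CPM. These were all more than 8-fold higher in both libraries. Plbd1, Pirb, Chil1 and Fmnl2 were also among the 10 highest. Outside the rule, 12 of 15 secondary granule genes were 2-fold or more higher and none was lower, with a median of 2.49 (2.87 with size factors). Of the 6 genes of the phagocyte NADPH oxidase, the complex that makes superoxide, 2 were 2-fold or more higher: Cybb, its catalytic subunit, at 1697 and 1734 CPM against 321 and 333 CPM, and Ncf1, a cytosolic subunit, at 408 and 394 CPM against 165 and 181 CPM.

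The low end held genes of several kinds. Calr, the chaperone calreticulin, stood at 45.04 CPM in the WT and 53.9 CPM in the KO preneutrophils against 753 and 817 CPM. Srm, spermidine synthase, stood at 6.30 and 5.92 CPM against 133 and 146 CPM. C1qbp, a mitochondrial matrix protein, stood at 20.4 and 20.5 CPM against 344 and 381 CPM. Dmkn, Cst7, Mif, Srgn, F13a1, Phgdh and Hspe1 completed the 10 lowest, with log2 ratios between -5.45 and -3.75. Srgn, the granule proteoglycan serglycin, was the most abundant of these, at 235 and 272 CPM against 4353 and 4155 CPM. F13a1, coagulation factor XIII A, is on the monocyte marker list, and all 3 measured genes of that list, F13a1, Ms4a6c and Irf8, were 2-fold or more lower in the preneutrophils.

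By list, 16 of 17 secretory pathway and ER folding genes were 2-fold or more lower with a median of -2.13, and all 7 measured ribosome biogenesis genes with a median of -2.77. Npm1, the nucleolar histone chaperone nucleophosmin, was at 200 and 215 CPM against 1376 and 1626 CPM. The other primary granule and promyelocyte genes were lower in 8 of 11 cases with a median of -2.65, and oxidative phosphorylation genes in 10 of 19 with a median of -1.07. Under median-ratio size factors these 4 medians were -1.74, -2.38, -2.26 and -0.66. The direction of each held, and the oxidative phosphorylation list came closest to the median of all genes. Myb, a progenitor transcription factor, was at 50.2 and 47.7 CPM against 221 and 197 CPM.

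Of 46 measured G2 and mitosis genes outside the rule, 7 were 2-fold or more higher in the preneutrophils and none was lower. Their median was 0.48 against -0.27 over all genes, and 0.89 against 0.10 with size factors. The whole list summed to 13188 CPM in the WT and 13023 CPM in the KO preneutrophils, against 8668 and 8418 CPM. Hmgb2, which weighs heavily in that sum, gave 0.491% and 0.477% of all UMIs of the preneutrophils. Of 23 S phase genes 3 were lower and none was higher, with a median of -0.33 that became 0.00 with size factors. Regulators of cycle entry went both ways. Cdk4 stood at 36.9 and 35.9 CPM against 236 and 237 CPM, and Cdk6 at 90.9 and 73.2 CPM against 444 and 418 CPM; both are kinases that drive entry into S phase. Ccnd3, a D-type cyclin, was at 251 and 262 CPM against 122 and 120 CPM. Ccnd2, another D-type cyclin and under the level filter, went the other way, at 5.29 and 5.24 CPM against 60.1 and 64.9 CPM. Cdkn2d, an inhibitor of Cdk4 and Cdk6, was at 259 and 274 CPM against 76.1 and 78.6 CPM, and Rb1, the retinoblastoma protein, at 87.5 and 79.1 CPM against 35.3 and 32.3 CPM. Cdk4 and Cdk6 were thus 2-fold or more lower, and Ccnd3, Cdkn2d and Rb1 2-fold or more higher, in both libraries.

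Among granulocyte transcription factors Cebpe was at 395 and 410 CPM against 167 and 180 CPM, and Mxd1, a MAX partner that opposes MYC, at 132 and 154 CPM against 29.7 and 33.9 CPM. Irf8, a monocyte and dendritic cell factor, was at 15.8 and 11.3 CPM against 118 and 91.9 CPM. Cebpe and Mxd1 were 2-fold or more higher and Irf8 and Myb 2-fold or more lower, of 11 measured. Myc and Cebpa were under the level filter, Myc at 4.23 and 3.12 CPM against 34.1 and 32.5 CPM and Cebpa at 5.61 and 4.34 CPM against 44.9 and 34.3 CPM.

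**Figure D3:**
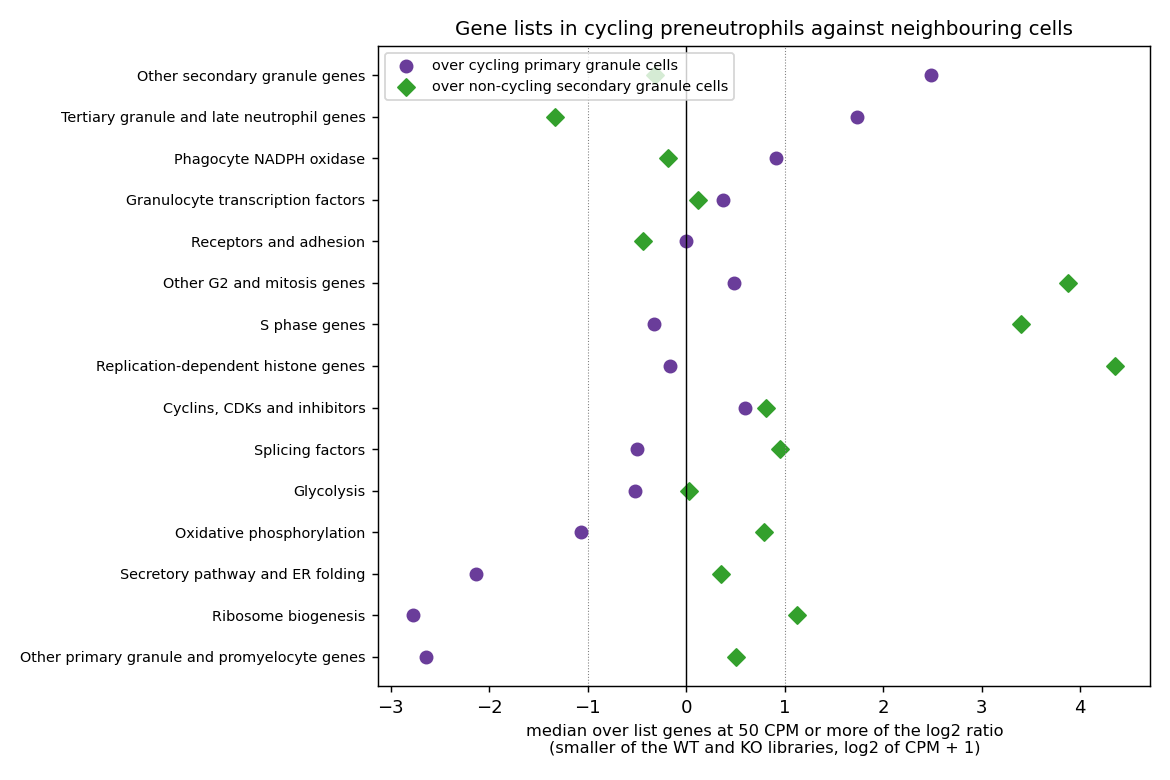
Median log2 ratio over the measured genes of each list, cycling preneutrophils over cycling primary granule cells (circles) and over non-cycling secondary granule cells (diamonds); each gene enters with the smaller of its WT and KO ratios, and dotted lines mark 2-fold. Against the cycling primary granule cells, ribosome biogenesis (-2.77), other primary granule genes (-2.65) and ER folding (-2.13) are lowest. Primary granule genes of the rule split these 2 groups. Against the non-cycling cells, tertiary granule genes are lowest (-1.34).

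A broader group of 1583 WT and 2081 KO cycling cells, which met neither granule rule or carried an excluded lineage gene, gave a wider comparison. Of 3094 genes, 303 (9.79%) were 2-fold or more higher in the preneutrophils in both libraries and 1118 (36.1%) were lower, with a median log2 ratio over all genes of -0.68. Both groups were chosen by the 8 cycle genes of the rule, so the values of these genes (median -0.03, none past 2-fold) only describe the chosen cells. The choice does not fix evenness. Against the cycling primary granule cells, chosen by the same 8 genes, their median was 0.68 and 2 were 2-fold or more higher in the preneutrophils. Of 52 other G2 and mitosis genes 1 was lower. Of 34 S phase genes 19 were lower, with a median of -1.10. All 14 measured secondary granule genes outside the rule (median 2.89) and all 6 NADPH oxidase genes (median 2.46) were higher. All 11 ribosome biogenesis genes were lower (median -2.97). The groups were split by granule and lineage genes, so these values describe the split cells and support no statement of cause.

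The remaining primary granule RNA ordered the cycling preneutrophils among themselves. The share of Elane, Mpo, Prtn3 and Ctsg was 0.5 to 1% in 124 WT and 152 KO cells, 0.1 to 0.5% in 248 and 330, 0.05 to 0.1% in 167 and 318, and under 0.05% in 1765 and 1570. These ranges were set after the data were seen. The lowest range lies near the background of these libraries. Its median share was 0.0124% in WT and 0.0206% in KO cells, against medians of 0% and 0.0259% in T or NK cells. The 95th percentile in T or NK cells was 0.0646% and 0.0957%, so the range from 0.05 to 0.1% overlaps background too.

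From the highest range to the lowest, Ltf went from 1617 to 6830 CPM in WT and from 1910 to 7053 CPM in KO cells, and Lcn2 from 4959 to 12046 CPM and from 7114 to 13439 CPM. Cd177 went from 296 to 693 CPM and from 374 to 724 CPM. All 3 rose at each step in both libraries. Ly6g was flat at first and then rose, with 68.3, 54.5, 131 and 354 CPM in the WT and 61.8, 67.6, 160 and 317 CPM in KO. Cybb went from 1015 to 1854 CPM and from 1208 to 1902 CPM.

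Other genes fell over the same ranges. Fcnb went from 1029 to 558 CPM in WT and from 923 to 469 CPM in KO, and Cd63, a tetraspanin of primary granule membranes, from 1030 to 552 CPM and from 1028 to 511 CPM. Myc went from 10.7 to 2.14 CPM and from 7.66 to 1.63 CPM. The summed S phase list went from 3734 to 2596 CPM and from 3542 to 2276 CPM. The mitosis list rose instead, from 10127 to 13968 CPM and from 10163 to 14098 CPM. Hmgb2 alone, which is on the mitosis list, went from 3462 to 5261 CPM in WT and from 3462 to 5237 CPM in KO. Camp, the most abundant rule gene, moved less: it was 77653, 83984, 83403 and 81776 CPM over the 4 ranges in WT and 74151, 76620, 77859 and 78512 CPM in KO. Secondary granule genes thus did not rise together: Ltf rose more than 3-fold, Camp changed far less and Fcnb fell.

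**Figure D4:**
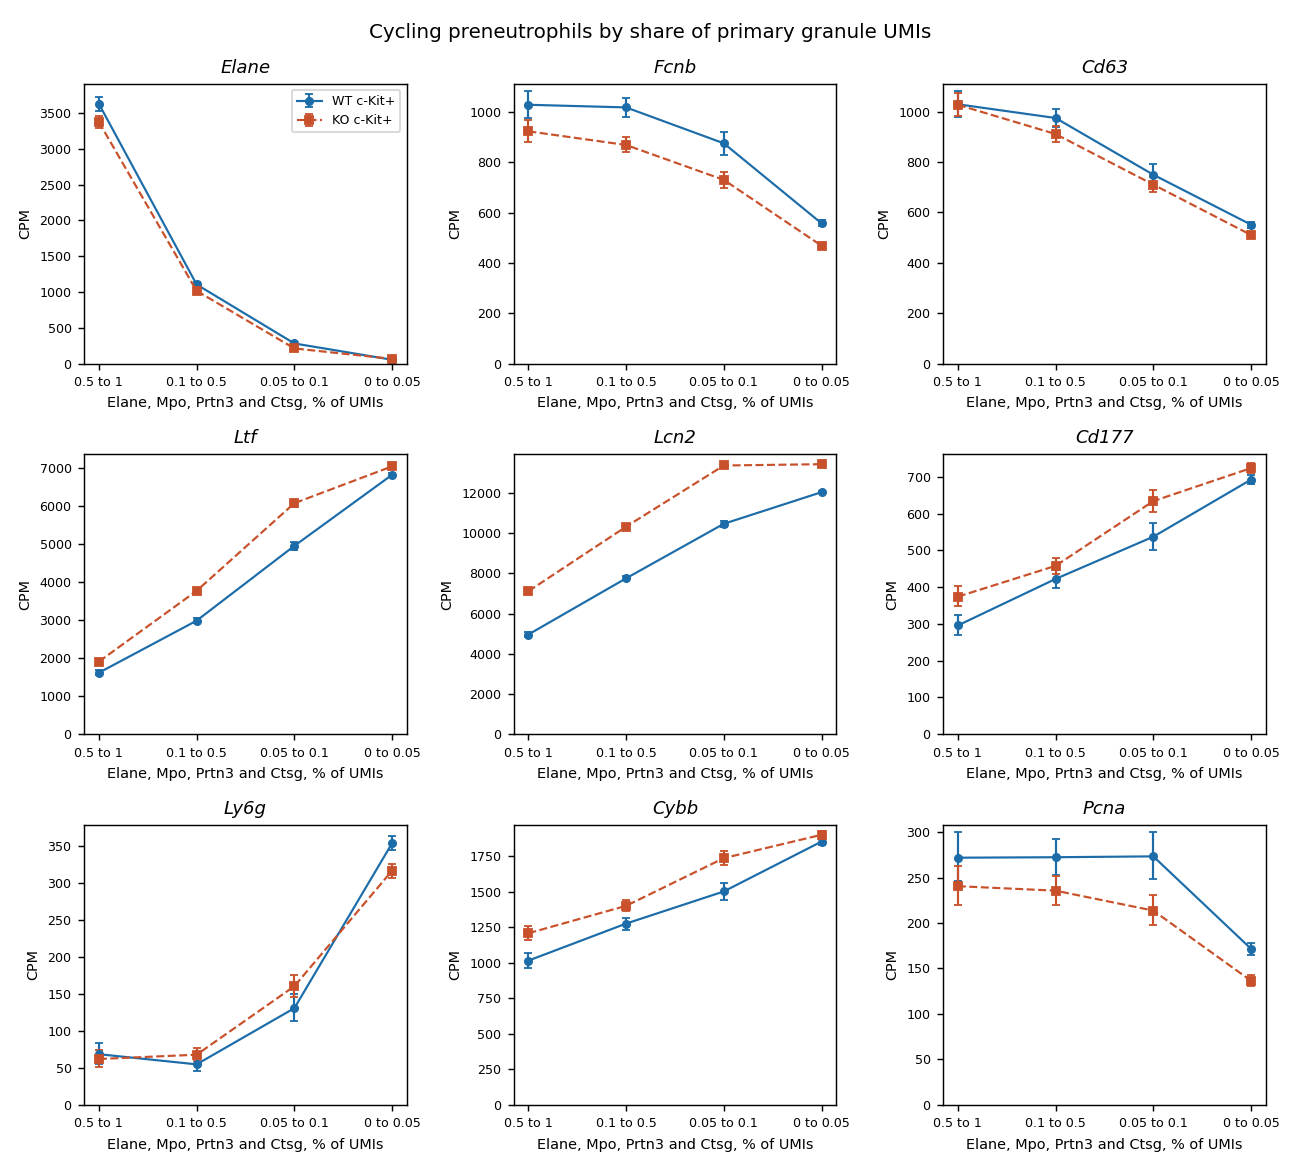
Level in CPM of 9 genes in cycling preneutrophils grouped by the share of UMIs from Elane, Mpo, Prtn3 and Ctsg, highest share on the left, in the WT (circles) and KO (squares) libraries; bars are exact Poisson 95% intervals. Fcnb and Cd63 fall from left to right while Ltf, Lcn2, Cd177 and Cybb rise, and Ly6g is flat before it rises.

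The promoters of the 2 programs that run side by side in these cells were searched for short motifs. Windows of 250 bases before the start were taken from RefSeq (GRCm38.p6) and searched on both strands for the CHR element TTTGAA, the CCAAT box CCAAT, the E2F motif TTTNGCGC and the C/EBP motif TTGCNNAA. Of 32851 windows of all genes, 15.99% held the CHR element, 33.8% a CCAAT box, 1.13% the E2F motif and 9.56% the C/EBP motif. The mitosis genes (the 8 of the rule and the list, 60 of 70 symbols matched, 66 windows) held them in 37.9%, 74.2%, 9.09% and 1.52% of windows. The secondary granule genes (18 of 21 matched, 20 windows) held them in 20%, 50%, 0% and 30%. The C/EBP motif was thus in 6 of 20 secondary granule windows and 1 of 66 mitosis windows, and CHR element and CCAAT box occurred together in 21 of 66 mitosis windows against 5.55% of all windows. A match describes letters only and is no evidence of binding. Below are stretches before the start of 3 mitosis genes and 3 secondary granule genes, read 5′ to 3′ on the gene's strand, shown because they hold the motifs; matches to the CHR element, the CCAAT box and the C/EBP motif (on either strand) are in capitals. Bases inside the gene by GENCODE M21 were left off. They lie at chr11:99024190-99024289 (Top2a, minus strand), chr10:69352939-69353012 (Cdk1, minus), chr4:118437353-118437443 (Cdc20, minus), chr9:110419663-110419746 (Ngp, plus), chr9:111019192-111019270 (Ltf, plus) and chr2:28084886-28085008 (Fcnb, minus). In Ltf the CCAAT box, as ATTGG, and the C/EBP motif overlap.
Top2a: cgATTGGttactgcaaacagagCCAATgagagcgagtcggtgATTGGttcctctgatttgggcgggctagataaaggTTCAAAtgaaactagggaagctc
Cdk1: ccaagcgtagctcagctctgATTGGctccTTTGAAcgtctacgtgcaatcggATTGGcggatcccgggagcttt
Cdc20: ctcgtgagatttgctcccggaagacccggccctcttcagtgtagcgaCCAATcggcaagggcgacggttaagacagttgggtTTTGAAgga
Ngp: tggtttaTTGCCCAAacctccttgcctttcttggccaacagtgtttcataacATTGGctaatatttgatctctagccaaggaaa
Ltf: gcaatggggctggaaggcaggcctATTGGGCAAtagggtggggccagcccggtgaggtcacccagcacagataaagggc
Fcnb: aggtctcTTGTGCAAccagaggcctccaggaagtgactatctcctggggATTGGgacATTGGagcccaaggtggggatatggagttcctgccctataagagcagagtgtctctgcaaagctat

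Top2a, DNA topoisomerase II alpha, has 3 CCAAT boxes and 1 CHR element in the stretch shown, Cdk1, the mitotic kinase, has 2 and 1, and Cdc20 has 1 and 1. Ngp, Ltf and Fcnb have 1 C/EBP motif each and no CHR element. In the cells, the mitosis genes and the granule genes were read from the same RNA: Top2a stood at 617 CPM in the WT and 614 CPM in the KO cycling preneutrophils, beside Ngp at 31445 and 31625 CPM.

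The last comparison set the KO cells against the WT cells. The cycling preneutrophils of the 2 libraries were close to each other. Of 2385 genes with a mean level of at least 50 CPM, 13 (0.545%) were 1.5-fold or more higher in the KO cells and 4 (0.168%) were 1.5-fold or more lower. The median log2 ratio was -0.02, its standard deviation over genes was 0.16, and 2254 genes lay within 1.2-fold. The defining genes were among these. The ratio of KO to WT was 0.949 (exact conditional 95% interval 0.947 to 0.951) for Camp, 0.909 (0.888 to 0.931) for Fcnb, 0.956 (0.949 to 0.964) for Chil3, 1.04 (1.01 to 1.07) for Cebpe, 1.04 (1.01 to 1.06) for Mki67 and 0.994 (0.971 to 1.02) for Top2a.

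Ifitm genes, which encode interferon-induced transmembrane proteins, were higher in the KO cells. Ifitm6, a member expressed in myeloid cells, stood at 842 CPM in the WT and 1594 CPM in the KO cycling preneutrophils, a ratio of 1.89 (1.86 to 1.93). It was spread over the cells: 92.2% of WT and 98.4% of KO cells had a UMI, and 10 cells held 2.62% and 2.10% of the UMIs. Ifitm2 stood at 277 and 482 CPM (ratio 1.74, 1.68 to 1.79) and Ifitm3 at 327 and 566 CPM (1.73, 1.68 to 1.78). The 3 genes lie in the Ifitm cluster on chromosome 7 (Ifitm6 at chr7:141015699-141017924, GRCm38), and as close paralogs they may share reads. The difference was not confined to cycling preneutrophils: the log2 ratio of Ifitm6 was 0.92 in them, 0.82 in cycling primary granule cells, 0.56 in non-cycling secondary granule cells and 0.92 in other cycling cells.

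Lilrb4b, an inhibitory immunoglobulin-like receptor, went from 46.2 CPM in the WT cells to 83.3 CPM in the KO cells, and Fpr2, a formyl peptide receptor, from 56.3 to 86.3 CPM. The monocyte marker sums stood at 58.5 and 58.8 CPM beside them, and the conventional dendritic marker sums at 37.5 and 107 CPM; the part of other cells in these ratios was not tested. H2ac4, a replication-dependent histone gene, was at 45.3 and 69.8 CPM. Mir6236, a short annotated locus, was at 111 and 167 CPM and just past the limit.

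Blood and plasma cell RNA made up another part of the KO-high genes. Hbb-bs was at 65.9 CPM in the WT and 246 CPM in the KO cells, Hba-a1 at 23.6 and 82.8 CPM and Hbb-bt at 28.1 and 89.5 CPM; all 3 encode haemoglobin chains. The immunoglobulin genes Igkc (62.7 and 139 CPM) and Igha (38.6 and 82.5 CPM) were higher as well. In the KO cells 10 cells held 49.3% of the Hbb-bs UMIs and 35.6% of those of Igkc, against 11.7% and 3.37% in the WT cells. The summed erythroid markers were 27.7 and 33.2 CPM and the B cell markers 11.4 and 16.2 CPM, and the part of free RNA or of joined cells was not tested.

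Prtn3, proteinase 3, is a rule gene and stood at 377 CPM in the WT and 625 CPM in the KO cells, a ratio of 1.66 (1.61 to 1.70). Elane stood at 449 and 539 CPM. In T or NK cells, which do not make it, Prtn3 was at 28.0 and 118 CPM, and its log2 ratio was 0.94 in non-cycling secondary granule cells and 0.16 in the cycling primary granule cells that make most of it. Averaged over the same weights of the 4 primary share ranges, an alternative added after the data were seen, the log2 ratio of Prtn3 was 0.38 instead of 0.73 and no longer past 1.5-fold; Prtn3 is 1 of the 4 genes that set those ranges, so this averaging lowers its ratio by construction.

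Klf2, a zinc finger factor of quiescence, was at 490 CPM in the WT and 296 CPM in the KO cells, a ratio of 0.604 (0.586 to 0.623). Pde4b, a phosphodiesterase that degrades cyclic AMP, was at 127 and 74.1 CPM (0.581, 0.546 to 0.618), Per2, a circadian clock gene, at 77.9 and 49.997 CPM (0.641, 0.594 to 0.692), and Hcst, the signalling adaptor DAP10, at 168 and 112 CPM (0.663, 0.629 to 0.698). Klf2, Per2 and Hcst were lower in the KO library in the 3 other cell groups too, while Pde4b was not lower in other cycling cells (0.14). Over all 17 genes past 1.5-fold, 14 had the same sign in all 3 other groups. The same count over all measured genes is not given here, and the groups come from the same libraries, so this agreement is a description only. Ifitm6, Ifitm2, Ifitm3, Lilrb4b, Klf2 and Pde4b stayed past 1.5-fold under all 18 alternatives of the processing. Per2 (log2 ratios from -0.67 to -0.43), Hcst (-0.61 to -0.54), H2ac4 (0.48 to 0.64), Fpr2 (0.57 to 0.82) and Mir6236 (0.55 to 0.70) kept their sign in all but slipped under the limit in some.

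**Figure D5:**
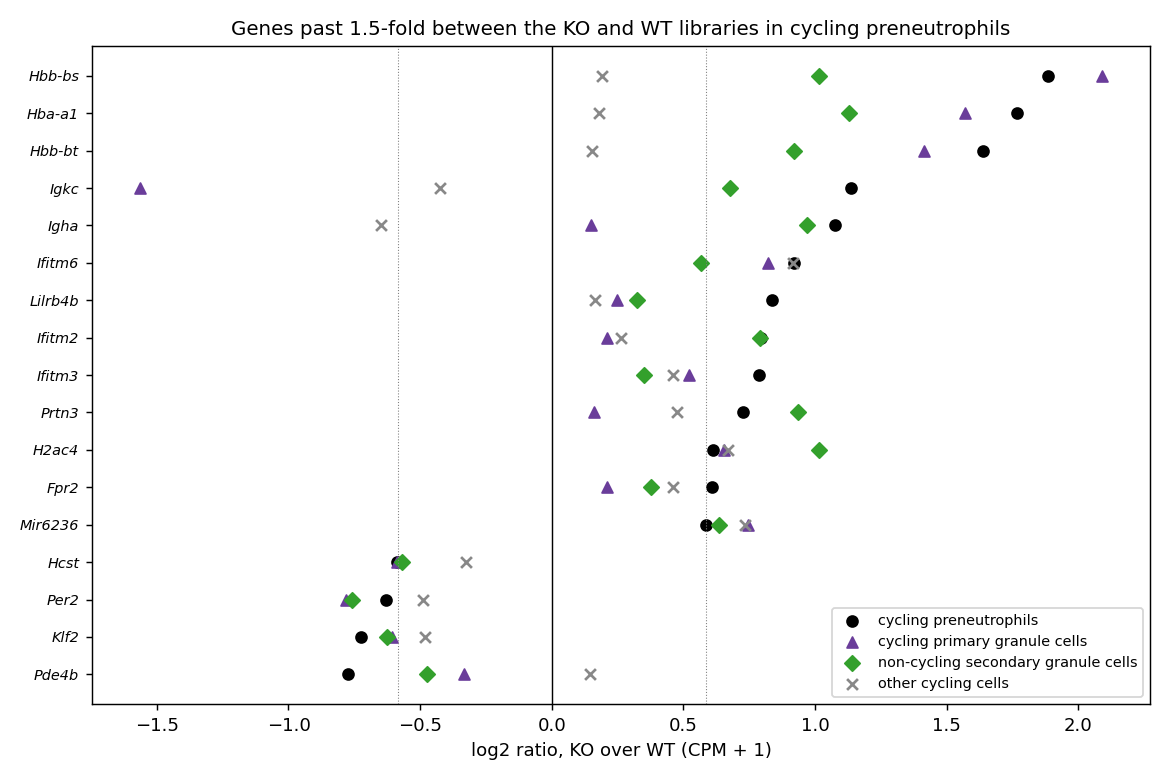
Log2 ratio of KO over WT (CPM plus a pseudocount of 1) for the 17 genes past 1.5-fold in cycling preneutrophils (black), with the same ratio in 3 other cell groups; dotted lines mark 1.5-fold. For 14 of the 17 genes all 4 points lie on the same side of 0, the exceptions being Igkc, Igha and Pde4b.

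Some lists leaned one way by less than the limit. All 10 measured replication-dependent histone genes were above 0 in the KO cells, with a median log2 ratio of 0.23. So were all 11 ER folding genes with a median of 0.19, beside 1024 of 2385 over all genes. The histone lean was not particular to these cells. In WT and KO the list summed to 2830 and 3590 CPM in cycling primary granule cells and to 4183 and 5316 CPM in other cycling cells. In non-cycling secondary granule cells it summed to 294 and 342 CPM. Of 19 S phase genes 15 lay below 0, with a median of -0.15. No gene of these 3 lists passed 1.5-fold; H2ac4, which did, is not on the histone list. Over the alternatives the histone median ranged from 0.16 to 0.32, the ER folding median from 0.06 to 0.22 and the S phase median from -0.20 to -0.12. The 12 measured cyclin and kinase genes had a median of -0.07, the 51 G2 and mitosis genes one of -0.02, and the 22 splicing factor genes, Rbm5 included, one of -0.01. Of 10 immediate early and heat shock genes 8 lay below 0 with a median of -0.17, among them Klf2, the only gene of that list past the limit, Dusp1 (134 and 90.0 CPM), a MAP kinase phosphatase, and Jund (375 and 272 CPM), an AP-1 subunit. With 1 library per genotype, genotype and library cannot be told apart.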

How the data were processed

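The authors deposited raw whole-number UMI counts for 4 libraries, made with Cell Ranger 7.1.0 against mm10 per the submitters' processing notes; the annotation and cell calling are not given in the sources used here. Symbols shared by several of the 56941 feature IDs (147 symbols) were summed. The quality filter asked for 500 genes, 1000 UMIs and no more than 10% mitochondrial UMIs per cell; doublets were kept (Scrublet in scanpy 1.11.5, expected rate 0.08, was an alternative). UMIs were summed per cell group and library, scaled to CPM and compared as log2 with a pseudocount of 1 CPM over genes with a mean level of at least 50 CPM. A call needed 1.5-fold between KO and WT, or 2-fold in both libraries between cell groups. Cycling primary granule cells met the cycle rule with 1% or more primary granule UMIs. T or NK cells had 3 or more of 8 markers and no cycle gene UMI. Intervals are exact (Poisson, conditional binomial, Clopper-Pearson, 95%, with numpy 2.4.6 and scipy 1.17.1). The limits around the ratio of shares are not such an interval: they divide the outer limits of the 2 share intervals. With 1 library per group no test was made, and the groups were chosen from the counts they are compared on. The calling script was tested on simulated data. The genes named were a fixed set with the rule genes, the 10 highest and 10 lowest called per comparison, and up to 4 per list. Haemoglobin, immunoglobulin, mitochondrial and sex-linked genes were left out of the highest and lowest. Ccnd2, Ccnd3, Cd63, Cd34, the haemoglobin and the immunoglobulin genes were named after their values were seen. The cells and lists were chosen with earlier results of these data known. Alternatives were other cell filters, rule limits, pseudocounts, level filters, scalings, weights, thinned cells and matched ranges, 2 of them added after the data were seen. Some genes that the rule for named genes takes in are not reported here.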

Additional observations from a re-analysis of the deposited data

Results flagged for a closer look

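For 3 genes the KO and WT libraries differed in opposite directions in cycling preneutrophils and in another cell group of the same libraries; these differences between groups were not tested, since each group has 1 library. Igkc, the immunoglobulin kappa constant gene, had a log2 ratio of KO over WT of 1.14 in cycling preneutrophils, -1.56 in cycling primary granule cells and -0.42 in other cycling cells. Igha, the immunoglobulin alpha heavy chain gene, had 1.08 in cycling preneutrophils and -0.65 in other cycling cells. In the KO cycling preneutrophils 10 cells held 35.6% of the Igkc and 30.2% of the Igha UMIs. Pde4b had -0.77 in cycling preneutrophils and 0.14 in other cycling cells.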

How the results depend on the processing

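No paired analysis was possible because each group has 1 library and no result comes from a test. The ratio of the KO to the WT share of cycling preneutrophils lay between 0.960 and 1.025 over its 10 alternatives, while the shares themselves ranged from 13.03% to 22.0% in WT and 13.3% to 21.7% in KO. Of the 12 ranked or rule genes past 1.5-fold between KO and WT, all kept their direction under the 18 alternatives and 6 stayed past the limit in all. Of the genes named for the comparison with cycling primary granule cells, 39 of 39 kept their direction and 33 stayed past 2-fold, and for that with non-cycling cells 41 of 41 and 40. The counts follow the level filter by its construction, since fewer or more genes are measured. At 20 CPM, 25 genes were higher and 7 lower in KO, 369 higher and 1171 lower than in cycling primary granule cells, and 720 higher and 377 lower than in non-cycling cells. At 200 CPM these counts were 4 and 1, 43 and 233, and 92 and 59. With cells thinned to 2000 UMIs 7 genes were lower in KO. Median-ratio size factors gave 430 higher and 399 lower against cycling primary granule cells, and the cause of that move was not tested beyond the shift of the median of all genes from -0.27 to 0.10. Cxcr2, Myc and Cebpa stood under the level filter beside cycling primary granule cells, and low counts give them wider intervals.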
